A study of Oryctolagus cuniculus with 54 samples.

Results

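Lung development between gestational day 20 (F20) and day 23 (F23) was examined here through the 150 genes whose messenger RNA was gained most over these 3 days in the rabbit lung. Of the 29587 genes in the count table, 8743 reached a mean of at least 2.6 on the log2(CPM+1) scale at F23, where CPM is the count of a gene scaled to a library of 1000000 counts. Of all genes, 1030 reached that floor and also had all 4 F23 libraries above all 4 F20 libraries, and the 150 with the largest difference between the group means were taken as members. The members were thus chosen by their values at F20 and F23, and the difference between these ages is given below as a description without a test. No comparison tested below includes F20 or F23. In the fit of the development groups their libraries still enter the filter on low counts, the normalization and the estimate of the spread. Every member passes that filter by its F23 libraries alone.

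In the pseudoglandular phase the airway tree is laid down by repeated branching of epithelial tubes in a thick mesenchyme. In the canalicular phase that follows, the distal tubes widen, capillaries come to lie against them and the epithelium starts to differentiate towards the flat and the surfactant-producing cells of the gas-exchange surface. Saccular and alveolar growth then thin the walls and subdivide the air spaces around the time of birth.

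The samples were lungs of 45 New Zealand White rabbits in 54 libraries of 3′ messenger RNA sequencing, read in 3 runs. Fetal pups were taken by C-section at F20 (4 animals), F23 (4), F25 (3), F27 (3), F28 (3) and F29 (3), the number being the day of gestation. Term pups were born naturally on day 31 and stayed with their mothers in room air, and were sampled at birth (T31, 6 animals) and 4 days (T35, 3), 6 days (T37, 4) and 11 days (T42, 3) later. Preterm pups were delivered by C-section on day 28, kept in incubators at 21% oxygen on milk replacer, and sampled 1 h after delivery (P0) or after 3 days (P3) or 7 days of life (P7), with 3 animals each. The labels name the right lung for every sample, whereas the methods of the study state that whole lungs were used at F20 and F23, so the lung portion and the step from F23 to later ages cannot be told apart. Pups of a time point came from different dams according to the same methods, and the animal was the replicate. F20, F23, T37 and T42 were read in run 3 only, F27 and F29 in run 1 only, and 6 animals of F25, F28 and T35 were read in more than 1 run.

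Library totals were between 5771693 and 8073755 counts, with 6433138 to 7323627 at F20 and 6448608 to 7247023 at F23. The table lists genes by Ensembl identifier, and 0 of the 29587 identifiers could be paired with a gene symbol in the reference table used here. Members are therefore called by their rank in the F23 minus F20 difference, member 1 being the gene with the largest, and the labelled tissue was not checked against marker genes. Lungs were homogenised whole, so fewer cells of a type and less RNA per cell cannot be told apart.

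The gain from F20 to F23 had a median of 1.31 on the log2(CPM+1) scale over the 150 members and ran from 0.99 to 4.28. It was at least 1 in 145 members and at least 2 in 18. The last 3 members gained 0.994, 0.991 and 0.990, and the next 3 genes in the ranking, just outside, gained 0.982, 0.980 and 0.979. No gap separated the members from the genes that follow. The group value of a member had a median of 3.35 at F20, between 0.36 and 9.23, and of 4.80 at F23, between 2.6 and 10.4. The lowest count of any member in an F23 library was 21 reads, and 2 members had 10 reads or fewer in every F20 library.

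Member 1 (ENSOCUG00000005563) stood at 0.55, 0.18, 0.18 and 0.50 on the log2(CPM+1) scale in the 4 F20 libraries, and at 5.47, 3.84, 4.86 and 4.36 in the 4 F23 libraries. It went from a handful of reads to a clearly measured level in every F23 animal, while the F23 animals differed among themselves by more than 1.5. Member 2 stood at 1.26, 2.39, 1.24 and 1.68 at F20 and at 6.30, 4.68, 5.26 and 5.41 at F23. Member 8 (ENSOCUG00000016669) was uniform at the later age, with 3.23, 3.29, 2.72 and 3.74 at F20 against 5.93, 5.91, 5.85 and 5.82 at F23. The most abundant member was member 102, with a group value of 9.23 at F20 and 10.4 at F23, and it held more counts than any other member in the F20, F23 and F25 libraries. At F29 and T31 that place belonged to member 8 in every library, with up to 0.813% of all counts in a T31 library, and at F28 to member 8 except in 1 library of run 2, which member 2 led.

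Taken over the whole list, the median member level of a library was 3.29 to 3.46 in the 4 F20 libraries and 4.67 to 5.14 in the 4 F23 libraries. In the same run it was 5.73 in the single F25 library, 6.23 to 6.25 in 2 F28 libraries and 5.99 to 6.34 in 3 T31 libraries. After birth it was 6.07 to 6.24 at T35, 6.07 to 6.25 at T37 and 6.07 to 6.33 at T42 in this run, overlapping T31. In run 1 the T35 libraries, at 5.78 to 5.87, lay below those of T31, at 6.04 to 6.28. The members together took 0.372% to 0.443% of all counts at F20 and 0.861% to 1.17% at F23. In the same run the share was 2.08% in the F25 library, 3.93% to 4.44% at T31 and 3.03% to 3.63% at T42, the last pair without overlap, while the median levels of these 2 groups overlapped. Within run 1 the share was 1.97% to 2.08% at F25, 2.53% to 3.29% at F27 and 3.86% to 4.25% at F29.

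**Figure D1:**
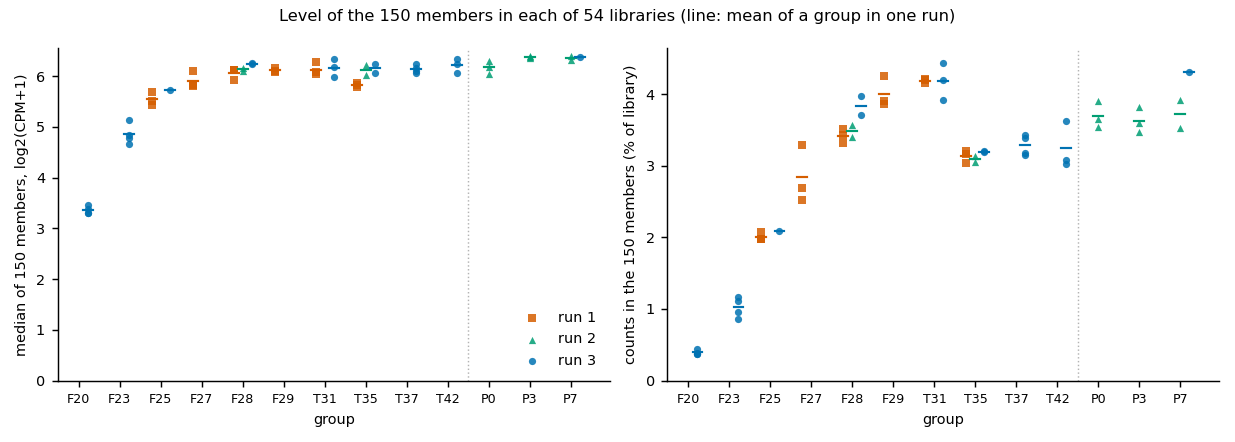
Median log2(CPM+1) of the 150 members (left) and percent of library counts in them (right) for each of the 54 libraries by group, with colour and marker giving the run and short lines the mean of a group in 1 run. F20 libraries sit at 3.29 to 3.46 and F23 libraries at 4.67 to 5.14 on the left axis, and the 16 later libraries of run 3 at 5.73 to 6.38.

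The later course was described first within run 3, where F20 and F23 were read, so that no run difference enters it. Of the members, 114 (76%) had all 16 later run 3 libraries above all 4 F20 libraries, against 8.97% of the 8743 genes at or above the floor. The lone F25 library of run 3 already lay above all 4 F23 libraries for 111 members (74%, against 24.5% of the floor genes) and below all 4 for 12. These shares, and those that follow for F28 and T42, are descriptions, because the members were chosen for being low at F20 and high at F23. At F28 the group value was at least 1 above F23 for 73 members (48.7%) and at least 1 below for 3 (2%), against 5.86% and 11.5% of the floor genes. Among the 137 members with an F28 value at least 1 above F20, the median share of the F20 to F28 difference present at F23 was 54.2%, with quartiles of 41.6% and 72.1%.

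At T42, 62 members (41.3%) were at least 1 above their F23 value, 77 were within 1 of it and 11 (7.33%) were at least 1 below. Of the floor genes, 6.47% were at least 1 above and 12.3% at least 1 below. With library sizes corrected by TMM, which moves the difference between T42 and F23 by 0.24, the numbers were 73, 67 and 10. The highest of the 7 run 3 group values with at least 2 libraries fell at F28 for 54 members, at T31 for 40 and at F23 for 15, and at T35, T37 and T42 for 14, 13 and 14. For 135 members the lung had its highest value after F23. For 12 members the T42 value was at or below the highest F20 library, and 10 of these had their highest value at F23. Shares of the floor genes by highest group, or back at F20 levels, were not computed.

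**Figure D2:**
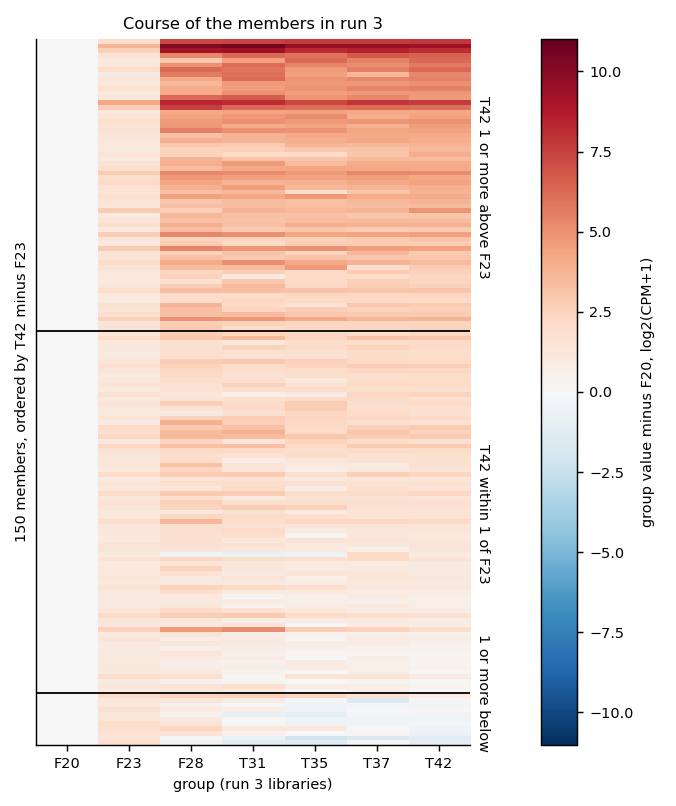
Group value minus F20 (log2(CPM+1), colour) in 7 groups of run 3 for the 150 members, 1 line per member, ordered by T42 minus F23. Black lines separate the 62 members at least 1 above F23 at T42, the 77 within 1 of it and the 11 at least 1 below.

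There were 9 members at least 4 above F23 at T42, with F20 group values of 1.5 to 3.4, and member 22 had the largest difference, 5.82. Its F20 libraries stood at 1.67, 1.85, 1.90 and 1.96 on the log2(CPM+1) scale, its F23 libraries at 3.91, 3.41, 3.62 and 4.19, and its T42 libraries at 9.49, 9.72 and 9.59. The gain to F23 was 1.94, so that most of the difference lay later, and the F28 value of 9.17 had already reached the range of the postnatal groups. Member 2 had group values of 5.41 at F23, 11.87 at F28, 12.14 at T31 and 10.96 at T42. Member 8 followed the same order at a higher level, with 5.88, 12.38, 12.61 and 11.36. Member 1 went from 4.63 at F23 to 8.72 at F28 and 8.05 at T42.

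A smaller set held its highest level at F23. Member 40 stood at 4.07, 3.66, 3.94 and 4.11 in the F23 libraries and at 2.29, 3.31, 1.40 and 2.11 in the F20 libraries. At T42 it was at 1.83, 1.91 and 0.18, and the T42 and F20 libraries overlapped. Member 67 had F23 values of 4.37, 4.78, 4.12 and 4.69 and F20 values of 3.28, 2.69, 3.42 and 3.12. Its T42 libraries, at 2.27, 1.58 and 1.73, lay below every F20 library. Member 24 was likewise at 3.52 at F23, 1.59 at F20 and 1.44 at T42, but its T42 libraries ranged from 0.39 to 2.53. The 11 members that were at least 1 lower at T42 than at F23 differed from F23 by 1.17 to 2.64, and 8 of them had their highest value at F23.

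**Figure D3:**
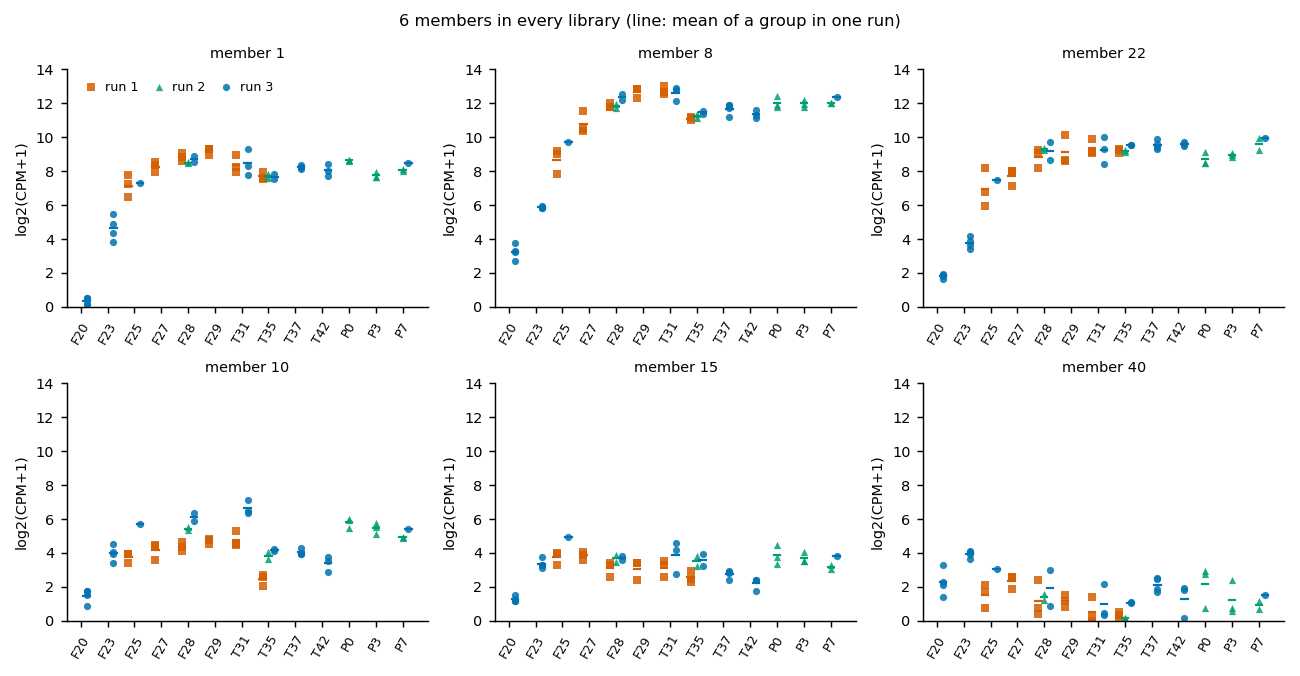
log2(CPM+1) of members 1, 8, 22, 10, 15 and 40 in every library by group, with colour and marker giving the run and lines the mean of a group in 1 run. Members 1, 8 and 22 stay far above their F20 libraries after F23, member 10 in run 3 is highest at T31 and lower from T35 on, and member 40 is highest at F23.

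Groups of different runs could be compared only with the run in the model. In the 5 animals read in both runs, the run 3 library differed from the run 1 library by a median of 0.22 over the members, between -2.11 and 1.96. This difference was at least 1 in size for 30 members (20%), 16 of them higher in run 3, and for 19.6% of the floor genes. Overlap between groups is therefore counted within a run that read both. These counts cover called members only, and the share over all called genes was not computed. A call itself favours groups that do not overlap, so the counts add no support to the calls. Levels from different runs are named by their run, except at P7 against P0, where the P7 animals are listed together. Animals within a group also differed more for the members than for the floor genes, with a median SD of 0.397 against 0.324 at T31 in run 3 and of 0.198 against 0.153 at F29.

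The first test asked whether the members went on rising between the canalicular and the saccular phase, at F29 against F25 (3 animals each). Calls required more than a 2-fold change and a Benjamini-Hochberg adjusted p not above 0.05 in the quasi-likelihood test of edgeR, adjusted over 15504 genes. By this test 35 of the 150 members (23.3%) rose and 0 fell. Over all genes tested 6.69% were called, 3.97% higher and 2.72% lower, and of the floor genes 2.39% were called higher and 4.12% lower. The median log2 fold change was 0.44 over the members and -0.01 over all genes. The 35 rose by 1.03 to 3.94 on the log2 scale with a median of 1.99, 16 of them by at least 2. In all 35 the run 1 libraries of F29 and F25 did not overlap. Over the fitted libraries of both runs this held for 30 of the 35. Of the 35, 30 were at least 1 above F23 at T42, 5 were within 1 of it and 0 were below. Of all 150 members, 62 (41.3%) were at least 1 above. These counts are a description, since F23 values chose the members. An unadjusted p under 0.05 was found for 69 members (46%) and for 22.3% of all genes. Fitted in run 1 alone, where both groups were also read, 39 members were called, 38 higher and 1 lower, and all 35 kept their sign with no estimate moving by more than 0.41.

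Member 8 rose most. Its run 1 libraries stood at 9.02, 9.17 and 7.85 on the log2(CPM+1) scale at F25 and at 12.81, 12.31 and 12.86 at F29. The log2 fold change was 3.94 ± 0.35 (SE derived from the F statistic), with an adjusted p of 7.85e-09 by edgeR. The groups were more than 3 apart and did not overlap. Member 95 stood at 2.27, 3.5 and 3.52 at F25 and at 6.28, 6.24 and 6.78 at F29 in run 1, with a log2 fold change of 3.88 ± 0.55 (adjusted p = 2.16e-05 by edgeR). In run 3 this member reads higher by 1.96 in the same animals, the largest difference in that direction of any member, and in run 1 alone the log2 fold change was 3.48. The next by size were members 118 (2.87 ± 0.68), 4 (2.78 ± 0.71), 31 (2.76 ± 0.45) and 92 (2.72 ± 0.34), then 2, 103, 119 and 147 with 2.59 to 2.46. Of these 10 members, 8, 2 and 4 were among the first 20 by gain to F23, and the others ranked from 31 to 147.

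From F29 to birth at T31, 2 of the 150 members (1.33%) rose by edgeR and 0 fell, against 0.303% of all genes called and 0.213% called higher. An unadjusted p under 0.05 was found for 38 members (25.3%) and for 14.8% of all genes. Member 82 stood at 4.91, 4.96 and 5.07 at F29, and at 7.22, 6.36 and 5.27 in the T31 libraries of run 1 and 8.77, 7.78 and 7.76 in those of run 3. The log2 fold change was 1.64 ± 0.34 with an adjusted p of 0.0271 by edgeR, and beside it this member read 1.19 higher in run 3 than in run 1 in the same animals. Member 63 stood at 6.24, 6.42 and 5.92 at F29 and at 7.81, 7.28 and 6.91 at T31 in run 1, with a log2 fold change of 1.12 ± 0.27 and an adjusted p of 0.0483 by edgeR. In neither member did the groups overlap in run 1. Run 1 alone gave 0 calls, with 30 members at an unadjusted p under 0.05. The count depended on single animals, with 0 members called without any one of the F29 animals or of T31 animals 1 and 10, 1 without T31 animal 4, 7 without T31 animal 15 and 6 without T31 animal 18.

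Between T31 and T42 more members fell than rose. Of the 150, 15 (10%) fell and 3 (2%) rose by edgeR (3 animals at T42, 6 at T31), against 5.26% of all genes called, 4.02% higher and 1.24% lower, and 3.56% and 1.3% of the floor genes. The median log2 fold change was -0.29 over the members and 0.04 over all genes. Of the 15, 7 ranked among the first 20 of the 150 by gain to F23, and whether rank and fall go together was not tested. In 14, all but member 147, the run 3 libraries of T42 and T31 did not overlap. Over the fitted libraries of both runs this held for 10 of the 15. Run 3 alone gave 20 calls, 4 higher and 16 lower, and moved no estimate of the 18 by more than 0.27. Without T42 animal 14, the number called was 12.

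Member 10 (ENSOCUG00000001105) fell most. It stood at 7.10, 6.37 and 6.49 in the T31 libraries of run 3 and at 2.89, 3.78 and 3.55 at T42, and at 5.29, 4.47 and 4.54 in the T31 libraries of run 1. The log2 fold change was -3.39 ± 0.30 with an adjusted p of 2.03e-08 by edgeR, and -3.44 in run 3 alone. In run 3 its T35 libraries were at 4.13 and 4.25 and its T37 libraries at 3.91, 4.28, 3.97 and 3.95, so the lower level was present from T35 on. The T42 libraries overlapped the F23 libraries, at 4.50, 3.39, 3.97 and 4.05, and lay above the F20 libraries, at 1.74, 1.54, 1.73 and 0.87. Member 15 (ENSOCUG00000001263) stood at 4.61, 4.18 and 2.77 at T31 and at 2.42, 2.40 and 1.79 at T42 in run 3, with a log2 fold change of -2.13 ± 0.37 (adjusted p = 2.83e-04 by edgeR). The T31 animals were spread over 1.8 and the lowest of them lay near the T42 libraries. Member 85 fell by 1.90 ± 0.27 on the log2 scale, member 32 by 1.78 ± 0.34 and member 86 by 1.48 ± 0.18. Member 8 fell by 1.56 ± 0.30 and still stood at 11.16, 11.60 and 11.33 at T42, more than 5 above every F23 library. The other 9 lowered members, 147, 18, 2, 43, 9, 81, 28, 16 and 61, had log2 fold changes from -1.56 to -1.08.

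The 3 members that rose to T42 were 122, 54 and 106. Member 54 stood at 5.0, 5.47 and 4.30 at T31 in run 3 and at 7.10, 6.71 and 6.57 at T42, with a log2 fold change of 1.83 ± 0.32 (adjusted p = 3.34e-04 by edgeR). Member 106 reached 8.65, 8.70 and 8.73 at T42 against 5.84, 8.05 and 7.26 at T31 in run 3, with a log2 fold change of 1.2 ± 0.40 (adjusted p = 0.0445 by edgeR). Its 3 T42 animals were nearly identical while the T31 animals differed by more than 2. For member 122 the log2 fold change was 2.01 ± 0.43, and in run 3 its T42 libraries, at 5.25, 4.02 and 3.72, lay above those of T31, at 2.88, 2.26 and 2.57. Members 2, 8, 10, 28, 85 and 147 both rose from F25 to F29 and fell from T31 to T42. These 6 are 17.1% of the 35 risen and 40% of the 15 fallen members, and 3 of them were still at least 1 above F23 at T42.

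**Figure D4:**
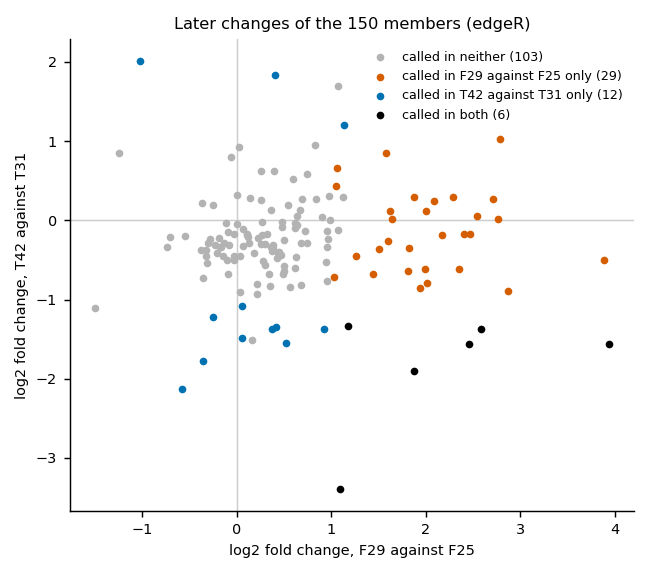
log2 fold change of F29 against F25 (horizontal) and of T42 against T31 (vertical) by edgeR for the 150 members, coloured by the comparison in which a member was called. The 35 members called at F29 all lie right of 0, and 15 of the 18 called at T42 lie below 0.

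Preterm pups were compared with fetal and term pups of the same day after conception. The fit held 21 libraries with the run as a term, over 14544 genes. Preterm and term pups also differed in delivery, feeding and days since birth, so these and early birth cannot be told apart. Shortly after delivery, at P0 against F28, 0 of the 150 members were called by edgeR, against 0.117% of all genes. An unadjusted p under 0.05 was found for 11 members (7.33%) and for 7.62% of all genes, DESeq2 and limma-voom called 0, and the median log2 fold change of the members was 0.04. Run 2 alone, with 2 F28 and 3 P0 libraries, called member 103. Its log2 fold change was 1.18 there (adjusted p = 0.0245 by edgeR) and 0.88 in the fit of all runs. At P3 against T31, 0 members were called by edgeR, against 0.0963% of all genes. Here 16 members (10.7%) and 10.4% of all genes had an unadjusted p under 0.05, limma-voom called 0 and DESeq2 called 2, and edgeR called 2 without T31 animal 11. P3 was read in run 2 and T31 in runs 1 and 3, so that this comparison rests on the run term.

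At P7 against T35, 1 member rose by edgeR, against 0.261% of all genes called and 0.254% called higher. An unadjusted p under 0.05 was found for 23 members (15.3%) and for 8.31% of all genes, and the estimate was above 0 for 95 of the 150. The median log2 fold change was 0.14 over the members and 0.001 over all genes. The share of all genes above 0 was not computed. Member 118 stood at 10.16 and 10.05 in run 2 and 9.63 in run 3 at P7, and at 7.52 and 8.0 in run 2 at T35. The third T35 animal was read in run 1 only, at 4.15, a run in which this member reads 1.21 lower than in run 3. The log2 fold change was 2.57 ± 0.48 with an adjusted p of 0.0187 by edgeR, and 2.19 in run 2 alone. The groups did not overlap in any run, but the call was lost when any one of the 6 animals was left out. The change from P0 to P7 minus that from F28 to T35 was called for 0 members, against 0.0344% of all genes. There, 8 members (5.33%) and 7.8% of all genes had an unadjusted p under 0.05, limma-voom called 0 and DESeq2 called 1. The smallest p was that of member 118, with a difference of 2.43 ± 0.68 on the log2 scale (adjusted p = 0.293 by edgeR).

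Within the preterm pups, 10 members were called at P7 against P0 (6.67%), 5 higher and 5 lower, against 3.03% of all genes, 2.5% higher and 0.536% lower. In all 10 the libraries of P7 and P0 did not overlap, also within run 2. P7 animal 1 was read in run 3, and the other P7 animals and all P0 animals in run 2. The P7 levels listed below hold both runs. Member 106 stood at 5.78, 5.01 and 5.57 at P0, at 7.91, 7.48 and 7.23 at P3 and at 8.92, 7.87 and 8.51 at P7, and rose by 2.92 ± 0.48 on the log2 scale (adjusted p = 0.00105 by edgeR). Every P3 animal lay above every P0 animal, and the P3 levels lay nearer to those of P7 than to those of P0. P3 against P0 was not tested. The fetal and term libraries in run 2 were at 5.16 and 4.73 at F28 and at 8.34 and 8.90 at T35, which is the same range. Member 95 stood at 6.32, 6.38 and 7.14 at P0 and at 9.43, 8.40 and 8.58 at P7, with a log2 fold change of 2.00 ± 0.45 (adjusted p = 0.0142 by edgeR). Members 103, 111 and 119 rose by 1.81 ± 0.43, 1.09 ± 0.25 and 1.06 ± 0.19.

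Among the called members the largest fall in preterm pups was that of member 43, from 4.55, 4.71 and 4.73 at P0 to 2.84, 3.73 and 2.82 at P7, with a log2 fold change of -1.74 ± 0.38 (adjusted p = 0.0109 by edgeR). The P0 animals were within 0.2 of each other, and the P7 animals, read in 2 runs, differed by 0.9. Member 7, with a gain to F23 of 2.71, stood at 9.05, 9.01 and 8.48 at P0 and at 7.81, 7.88 and 6.74 at P7, with a log2 fold change of -1.28 ± 0.30. The estimates of members 40 (-2.43 ± 1.06) and 104 (-2.13 ± 0.63) were larger in size but were not called (adjusted p = 0.259 and 0.0672 by edgeR). Members 32, 141 and 10 had log2 fold changes of -1.25 ± 0.29, -1.08 ± 0.28 and -1.03 ± 0.25. Members 32, 43 and 10 were also among the 15 that fell from T31 to T42, and member 106 rose in both comparisons. The number called was 3 without P7 animal 3, 5 without P0 animal 3 or P7 animal 4 and 6 without P0 animal 1, and 16 in run 2 alone.

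**Figure D5:**
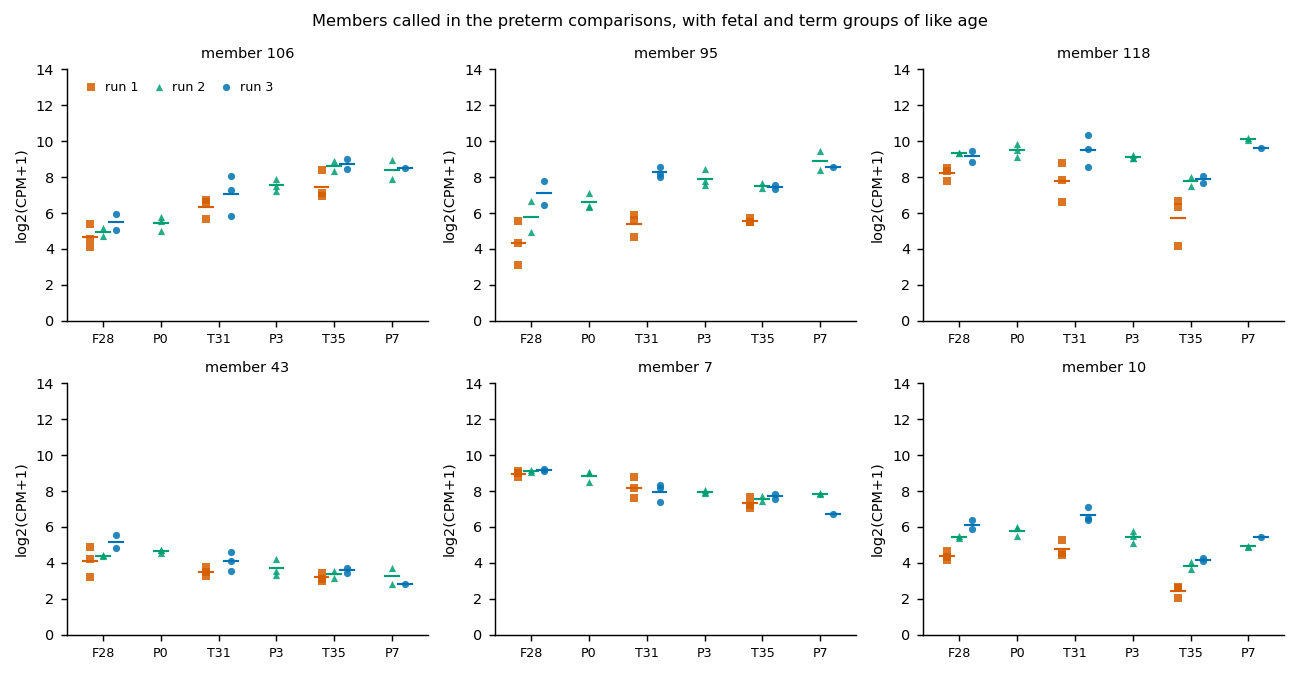
log2(CPM+1) of members 106, 95, 118, 43, 7 and 10 in every library of F28, P0, T31, P3, T35 and P7, with colour and marker giving the run and lines the mean of a group in 1 run. Member 106 rises from P0 to P7 as the term pups reach a like level at T35, and member 118 stands at 9.63 to 10.16 at P7 against 4.15 to 8.0 in the T35 libraries of the fit.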

How the data were processed

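Right or whole lung RNA was sequenced from 45 rabbits in 54 libraries with the QuantSeq FWD kit, which reads messenger RNA near its 3′ end. Per the methods of the study and its processing notes, the authors used BBduk for adapter removal, STAR for alignment to OryCun2.0 and HTSeq-count with Ensembl annotation for counting, and a script of their own assigned reads of 3′ UTRs that the annotation lacks. Tool versions are not given in the sources used here. The deposited values are whole-number counts per gene without normalization. No sequences are shown, since the reference table used here pairs none of the identifiers.

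Levels are log2(CPM+1), with CPM from the column total. The 150 members were taken by the rule stated at the opening from the run 3 columns. The members, the lists and the tests were chosen with earlier results of these data known. The 25 marker and pathway lists prepared (606 symbols) could not be applied, since 0 identifiers had a symbol. Members named were to be the largest called changes (up to 10 in each direction) with groups that do not overlap, those at the edge of the rule, and the first 20 by name. Without names this left ranks, and members outside the rule (22, 24, 40, 67, 102, 104 and the called members with overlapping libraries of the fit) were chosen after their values were seen.

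Tests used edgeR 4.0.16 in R 4.3.3 (TMM, quasi-likelihood, a minimum of 0.5 CPM in 3 fitted libraries, Benjamini-Hochberg adjustment over all genes tested). The development fit held 36 libraries, 1 per animal of runs 1 and 3 with the run 3 library where there were both, with time point and run as terms and 25 residual degrees of freedom. The preterm fit held 21 libraries with group and run as terms and 13 residual degrees of freedom, taking for each animal the library of run 2, or else of run 3, or else of run 1. A call was a fold change above 2 with an adjusted p of at most 0.05. The SE after each ± is the size of the log2 fold change divided by the square root of the F statistic. It is not an output of edgeR itself. The alternatives were DESeq2 1.42.0, limma-voom (limma 3.58.1), RLE size factors, no filter, no run term, the run 1 library of repeated animals, single runs, the adjusted p alone, the first 75 or 300 genes of the ranking, a replicate block, and each animal left out in turn. Leaving out T42 animals from the course was added after seeing the data. The procedures were tested on simulated data. Of planted log2 changes of 1.5, edgeR called 49.3% at F29 against F25, 50.8% at P7 against P0 and 54% at P7 against T35. For the change from P0 to P7 minus that from F28 to T35 it called 36.5% of such changes. A count of 0 called members in that last comparison therefore does not exclude changes of this size. Recovery was not simulated for P0 against F28 or P3 against T31, so the counts of 0 there do not show absence of change. The simulated counts held no difference between runs. No pair of libraries was identical (0 pairs, highest correlation 0.993). Reads carry no molecular identifiers, so depth limits counting error only. Python 3.11.15 with matplotlib 3.10.9 made the figures.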

Additional observations from a re-analysis of the deposited data

Results flagged for a closer look

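Outlying libraries were sought in groups of 4 to 10 libraries (F20, F23, T31 and T37). The levels of the 27 members named by rule and the median of all members gave 112 values. Of these, 11 (9.82%) held 1 library far from the others of its group. For independent values chance gives about 1 in 20. The values here share animals, and the T31 libraries came from runs 1 and 3, so that rate does not apply directly. All values are on the log2(CPM+1) scale. At F20, animal 35 was low for member 7 (1.16, others 1.85 to 1.91) and high for member 103 (2.42, others 1.61 to 1.67). At F23, animal 23 was high for member 92 (3.03, others 2.54 to 2.62) and animal 22 low for member 95 (2.82, others 3.42 to 3.49). In the newborns at T31, animal 4 was low for member 4 (4.67, others 5.73 to 6.29) and animal 11 high for member 28 (6.17, others 5.46 to 5.67). At T37, animal 27 was high for 4 members: member 9 at 7.32 (others 6.55 to 6.63), member 10 at 4.28 (others 3.91 to 3.97), member 32 at 6.47 (others 5.43 to 5.57) and member 92 at 5.97 (others 5.64 to 5.67). Animal 12 of T37 was low for member 141 (3.16, others 3.5 to 3.54). T37 entered no tested comparison above.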

How the results depend on the processing

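The settings were compared by their numbers of members, not by the direction of each call. Of the settings other than leaving out an animal, 63 kept the number of members within 1.5 times and 29 did not; of those leaving out an animal, 56 did and 19 did not. F29 against F25 (35 members) gave 21 in the first 75 genes of the ranking and 61 in the first 300, and 33 to 39 without single animals. T31 against F29 (2) gave 1 in the first 75, 6 with DESeq2, 4 with limma-voom, 4 with no filter, 5 with no run term and 0 with run 1 libraries or run 1 alone, and 0 to 7 without single animals. T42 against T31 (18) gave 35 by the adjusted p alone and 34 in the first 300, and 12 to 23 without single animals. P7 against P0 (10) gave 16 by the adjusted p alone, 4 in the first 75, 21 in the first 300 and 16 in run 2 alone, and 3 to 10 without single animals. P0 against F28 (0) gave 1 in run 2 alone and 0 to 0 without single animals. P3 against T31 (0) gave 2 with DESeq2, 3 with no filter and 3 with no run term, and 0 to 2 without single animals. P7 against T35 (1) gave 0 in the first 75, 2 in the first 300, 2 with DESeq2, 2 with no filter, 0 with no run term and 0 with run 1 libraries, and 0 to 0 without single animals. The change from P0 to P7 minus that from F28 to T35 (0) gave 1 with DESeq2, 1 with no filter and 1 in run 2 alone, and 0 to 0 without single animals. The longer and shorter rankings hold more and fewer genes by construction, and for the other settings the cause was not tested. Leaving out a T42 animal gave 61 to 66 members at least 1 above F23, 73 to 76 within 1, 11 to 13 at least 1 below and 13 to 16 back at F20 levels.

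Same-numbered P0 and P7 animals had correlations of 0.0582, 0.184 and 0.00783 in their deviations from the group means. Not every animal correlated best with its own number (P7 animal 1 with P0 animal 4, 0.0822), so the numbers were not taken as pairs. With a replicate block P7 against P0 gave 11 members and P7 against T35 gave 0.

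Fold changes of members near 0.5 CPM rest on few reads and are imprecise. F20 and F23 were read in run 3 only, so a difference between them and a group of run 1 cannot be told apart from that between the runs.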
